A study of Mus musculus with 6 samples.

Results

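The Polycomb repressor subunits examined here were 10 genes, Ezh1, Ezh2, Eed, Suz12, Bmi1, Ring1, Rnf2, Cbx2, Cbx7 and Cbx8. They were taken by symbol from the 53445 loci of the deposited read count table. They were chosen as subunits of Polycomb repressive complexes with roles in stem cell self-renewal. Their measured values were not used in that choice, but earlier results of these data were known. Eed was the only symbol listed more than once, and its longest locus was used. All 10 passed the filter on low counts, as did 22032 loci in all.

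The RNA-Seq compared LSK cells (Lin-Sca+Kit+, the bone marrow fraction that holds hematopoietic stem cells and multipotent progenitors) between OgaVav-Cre and wildtype mice, with 3 libraries of each genotype. Oga encodes O-GlcNAcase, the enzyme that removes O-linked N-acetylglucosamine from proteins, and OgaVav-Cre mice lack it through floxed Oga alleles cut by a Vav-driven Cre recombinase, which is active throughout the blood lineages. All donors were female, about 12 weeks old and on the C57BL/6 background. The wildtype label does not say whether those mice carried floxed alleles or the Cre transgene. Vav-driven Cre acts from early blood formation onward, so the cells show a long-standing loss of Oga and not its acute removal.

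Polycomb group proteins keep developmental genes silent through histone marks. PRC2 methylates lysine 27 of histone H3, with Ezh1 or Ezh2 as the catalytic subunit, Suz12 as the scaffold and Eed as the subunit that binds the finished mark. PRC1 ubiquitinates histone H2A through Ring1 or Rnf2 (also called Ring1b), joined by a PCGF protein such as Bmi1, and its CBX subunits bind the H3 mark through a chromodomain. In blood, Bmi1 sustains stem cell self-renewal by holding the Cdkn2a locus silent, and the CBX proteins are known to exchange as cells leave the stem cell state, with Cbx7 tied to self-renewal and Cbx2 and Cbx8 to differentiation.

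The libraries held 19318056 to 27064389 reads at loci, so that a floor of 3 reads corresponded to 0.109 to 0.155 CPM (reads per library size, with edgeR's TMM factors). Mgea5, the symbol under which Oga is listed, had 104 to 110 reads in OgaVav-Cre and 2736 to 3164 reads in wildtype libraries, which matched the labels. All 8 LSK markers were measured, and their summed level was 1042 to 2027 CPM in OgaVav-Cre and 1315 to 2104 CPM in wildtype. The 9 lineage-positive markers summed to 89.5 to 390 CPM and 119 to 245 CPM, with OgaVav-Cre replicate 3 the highest, and none of them was at or under the floor in every library. The 12 cycling cell markers summed to 2113 to 2299 CPM in OgaVav-Cre. In wildtype they summed to 3156, 1316 and 1584 CPM in replicates 1, 2 and 3, so wildtype replicate 1 stood above all other libraries. The share of reads at Ighm, Igkc and Igj, here the immunoglobulin share, was 9.88, 4.14 and 1.17% in OgaVav-Cre replicates 1 to 3. In wildtype replicates 1 to 3 it was 2.05, 5.48 and 1.36%. The 7 plasma cell markers, which include those loci, summed to 11812 to 111243 CPM in OgaVav-Cre and 12687 to 55358 CPM in wildtype. All 7 were fitted higher in OgaVav-Cre, with an edgeR adjusted p of 0.545 or above.

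No difference between the genotypes passed the test for any of the 10 subunits. The edgeR quasi-likelihood test with Benjamini-Hochberg adjustment called 7 of 22032 loci changed, 0.0318%, where the adjusted p was under 0.05 and the log2 fold change lay beyond 1 either way, and 0 of the 10 subunits. The smallest adjusted p among them was 0.540 (Eed, edgeR). At an unadjusted p below 0.05 edgeR found 10.6% of all loci and 0 of the 10 subunits, and DESeq2 called 0.493% of its tested loci and 0 of the 10. The CPM ranges of the genotypes did not overlap for 17.5% of loci and overlapped for each of the 10 subunits. Of the 10, 4 had a higher and 6 a lower fitted level in OgaVav-Cre cells, with a median log2 fold change of -0.025 against 0.0041 for all tested loci. Each subunit's 95% interval lay inside a log2 fold change of -1 to 1, as did those of 58.3% of all tested loci. In bulk RNA, fewer cells of a type and less RNA per cell cannot be told apart, which applies to each value below. With 3 libraries a genotype, an exact permutation test of a single gene cannot go below p = 0.1.

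**Figure D1:**
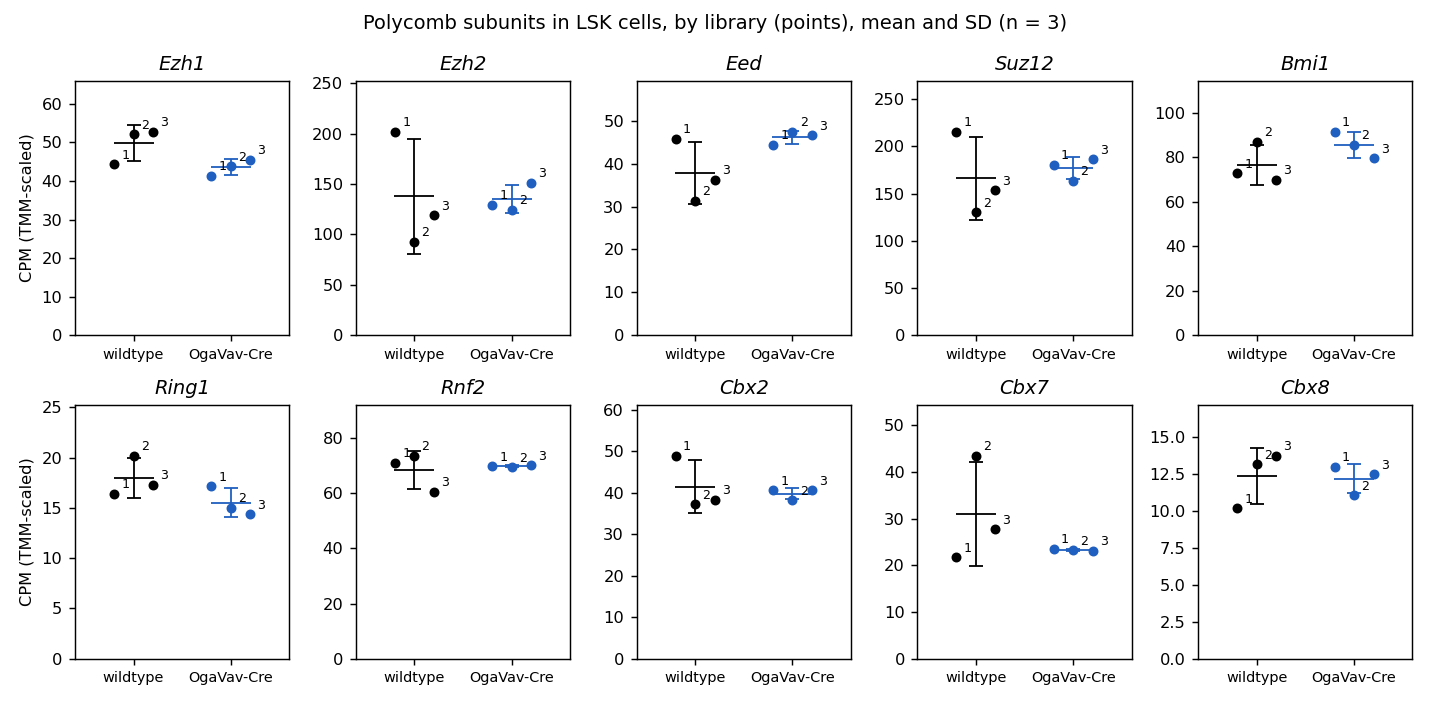
CPM of each of the 10 Polycomb subunits in each library, OgaVav-Cre beside wildtype, with points for single libraries and bars for the mean and SD (n = 3). The genotypes overlap in each panel, and the 3 wildtype libraries are spread most widely for Ezh2 (92.5 to 202 CPM) and Cbx7 (21.8 to 43.5 CPM).

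Among the catalytic subunits of PRC2, Ezh2 is the more active methyltransferase and is typical of dividing cells. The Ezh2 locus (mm9, chr6:47480273-47545340, minus strand) had 2927, 3149 and 4156 reads in the OgaVav-Cre libraries, replicates 1 to 3, against 4312, 1786 and 2821 reads in the wildtype ones. These counts were 130, 124 and 151 CPM and 202, 92.5 and 119 CPM. The OgaVav-Cre libraries all fell between the highest and the lowest wildtype library, and the wildtype libraries differed among themselves by 2.18-fold. The means were 135 ± 14.3 CPM in OgaVav-Cre and 138 ± 57.0 CPM in wildtype (SD, n = 3). The log2 fold change was -0.028 (standard error 0.270, 95% interval -0.66 to 0.60, edgeR adjusted p = 0.978), and it became 0.35 without wildtype replicate 1, the library with the most cycling marker RNA, and -0.24 without wildtype replicate 2. The sign of the Ezh2 difference thus turned with single wildtype libraries.

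Ezh1 forms a less active PRC2 that persists in cells that divide rarely. The Ezh1 locus (chr11:101052429-101087777, minus strand) had 41.3, 43.8 and 45.5 CPM in the OgaVav-Cre libraries, replicates 1 to 3, against 44.3, 52.1 and 52.7 CPM in the wildtype ones. Only the lowest wildtype library lay within the OgaVav-Cre range. Ezh1 was fitted at 0.875-fold the wildtype level (95% interval 0.720 to 1.06, edgeR adjusted p = 0.583), and its log2 fold change of -0.19 kept its sign with each library left out in turn (-0.27 to -0.149).

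Suz12 holds PRC2 together. The Suz12 locus (chr11:79806567-79847625, plus strand) had 180, 164 and 186 CPM in the OgaVav-Cre libraries against 215, 130 and 153 CPM in the wildtype ones. As with Ezh2, the OgaVav-Cre libraries lay between the wildtype extremes, and wildtype replicates 1 and 2 were the highest and the lowest of all 6. The log2 fold change was 0.088 (95% interval -0.36 to 0.54, edgeR adjusted p = 0.887), and it ran from -0.053 without wildtype replicate 2 to 0.32 without wildtype replicate 1. A second locus, Suz12/BC037438, covers 41018 bases of Suz12 on the same strand and was given 94.9% as many reads, so the pair are not independent measurements. Its log2 fold change was 0.11.

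Eed, the reader of the H3 mark within PRC2, had the highest fold change of the 10 subunits. The Eed locus (chr7:97103164-97129493, minus strand) had 44.4, 47.4 and 46.7 CPM in the OgaVav-Cre libraries, replicates 1 to 3, against 45.8, 31.4 and 36.3 CPM in the wildtype ones. All OgaVav-Cre libraries were above wildtype replicates 2 and 3, and wildtype replicate 1 lay among them. The fitted level was 1.22-fold that of wildtype (95% interval 0.948 to 1.57, edgeR adjusted p = 0.540). The log2 fold change of 0.29 ran from 0.178 to 0.45 with single libraries left out, and without wildtype replicate 1 the edgeR adjusted p was 0.264.

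In PRC1, Ring1 and Rnf2 are alternative ubiquitin ligase subunits, of which Rnf2 is the main one in most cells. The Rnf2 locus (chr1:153316535-153347960, minus strand) had 69.7, 69.5 and 70.2 CPM in the OgaVav-Cre libraries against 71.0, 73.6 and 60.6 CPM in the wildtype ones. The OgaVav-Cre libraries differed by only 1.01-fold among themselves, and wildtype libraries lay on both sides of them. Its fitted level was 1.02-fold that of wildtype (95% interval 0.849 to 1.23, edgeR adjusted p = 0.941). The Ring1 locus (chr17:34157737-34161625, minus strand) had 17.1, 15.0 and 14.4 CPM in the OgaVav-Cre libraries against 16.4, 20.2 and 17.3 CPM in the wildtype ones. Only OgaVav-Cre replicate 1 reached the wildtype range, and the fitted level was 0.863-fold (95% interval 0.669 to 1.11, edgeR adjusted p = 0.636). LOC100502891, a locus on the opposite strand, covers 1580 bases of Ring1 and was given 49.3% as many reads. The library kit does not mark strand, so reads in that stretch cannot be told apart.

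Bmi1 is the PCGF subunit of canonical PRC1 best known from hematopoietic stem cells. The Bmi1 locus (chr2:18598645-18608256, plus strand) had 2066, 2170 and 2187 reads in the OgaVav-Cre libraries against 1555, 1679 and 1657 reads in the wildtype ones. After scaling, these were 91.5, 85.7 and 79.7 CPM and 72.7, 87.0 and 70.0 CPM. The raw counts separated the genotypes, in libraries that were all deeper in OgaVav-Cre, but the CPM overlapped, since wildtype replicate 2 exceeded OgaVav-Cre replicates 2 and 3. The log2 fold change was 0.16 (standard error 0.127, 95% interval -0.13 to 0.46, edgeR adjusted p = 0.655) and stayed above 0 with each library left out in turn, at 0.099 to 0.27.

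Among the chromodomain subunits, Cbx7 had the lowest fold change of the 10 genes and the widest relative spread in wildtype after Ezh2. The Cbx7 locus (chr15:79746237-79801549, minus strand) had 533, 587 and 634 reads in the OgaVav-Cre libraries, replicates 1 to 3, against 466, 840 and 656 reads in the wildtype ones. The CPM were 23.6, 23.2 and 23.1 in the OgaVav-Cre libraries against 21.8, 43.5 and 27.7 in the wildtype ones. The OgaVav-Cre libraries were within 1.02-fold of each other and above wildtype replicate 1, so the lower mean came from wildtype replicates 2 and 3. The fitted level was 0.752-fold that of wildtype (95% interval 0.507 to 1.11, edgeR adjusted p = 0.564). Wildtype replicate 2 carried most of the difference, since the log2 fold change of -0.41 was -0.084 without it, and it was -0.61 without wildtype replicate 1. The end of Cbx7 also overlaps Apobec3, an opposite-strand gene with 365% as many reads as Cbx7, over 123 bases.

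Cbx2 and Cbx8 are neighbors on chromosome 11. The end of Cbx2 (chr11:118884276-118892584, plus strand) and that of Cbx8 (chr11:118897619-118902283, minus strand) are separated by 5034 bases. Cbx2 had 40.6, 38.2 and 40.5 CPM in the OgaVav-Cre libraries against 48.9, 37.2 and 38.3 CPM in the wildtype ones, with wildtype replicate 1 above all others. Its log2 fold change was -0.060 (95% interval -0.39 to 0.27, edgeR adjusted p = 0.898), and 0.078 without wildtype replicate 1. Cbx8, the subunit with the fewest reads, had 293, 280 and 342 reads in the OgaVav-Cre libraries against 217, 254 and 325 in the wildtype ones. These were 13.0, 11.1 and 12.5 CPM against 10.2, 13.2 and 13.7 CPM, with the OgaVav-Cre libraries inside the wildtype range. The fitted Cbx8 level was 0.985-fold that of wildtype (95% interval 0.733 to 1.32, edgeR adjusted p = 0.975).

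**Figure D2:**
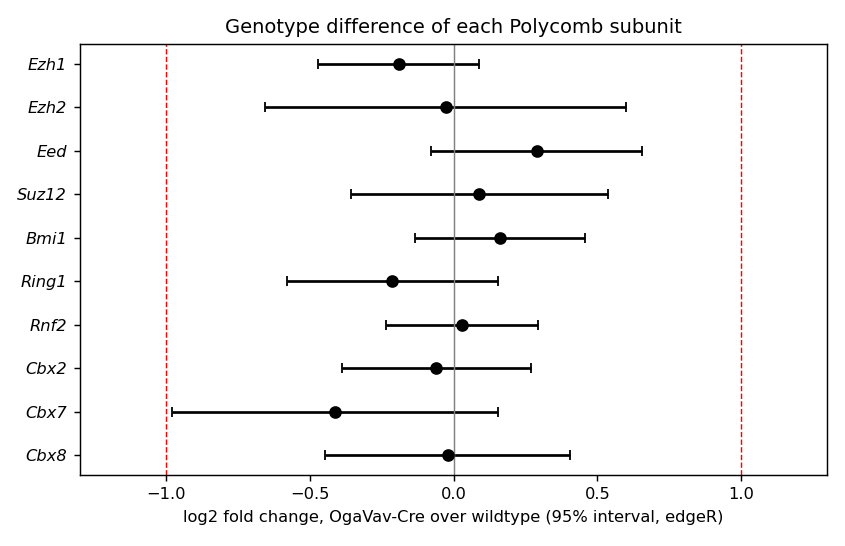
Log2 fold change of each Polycomb subunit in OgaVav-Cre over wildtype cells, with points for the edgeR estimate, bars for its 95% interval and dashed lines at a log2 fold change of -1 and 1. Each interval spans 0 and lies inside the dashed lines, with the widest bars for Ezh2 (-0.66 to 0.60) and Cbx7 (-0.98 to 0.156).

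Levels of different genes were compared on the deposited RPKM, which divide the reads by the length of the locus. In wildtype cells the order of the mean level was Suz12 (19.0 RPKM), Rnf2 (18.9), Bmi1 (16.8), Eed (15.2), Ezh2 (14.3), Cbx2 (8.70), Ring1 (7.88), Cbx7 (7.19), Ezh1 (5.64) and Cbx8 (3.00). The order of the means in OgaVav-Cre cells was the same. Neighbors in this order had overlapping wildtype ranges except for Ezh1 and Cbx8, where Ezh1 was higher in each wildtype library. Ezh2 was above Cbx2, and Cbx7 above Ezh1, in 6 of 6 libraries when compared within the library. On this scale, which is not corrected by TMM, Ring1 was 6.26 to 6.74 RPKM in OgaVav-Cre and 7.24 to 8.61 RPKM in wildtype cells. These ranges did not overlap, but limma on log2(RPKM + 1) gave an adjusted p of 0.493. The median log2 fold change of all tested loci was -0.041 in that limma fit and 0.0041 in the edgeR fit. The share of all loci without overlap on RPKM was not computed.

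**Figure D3:**
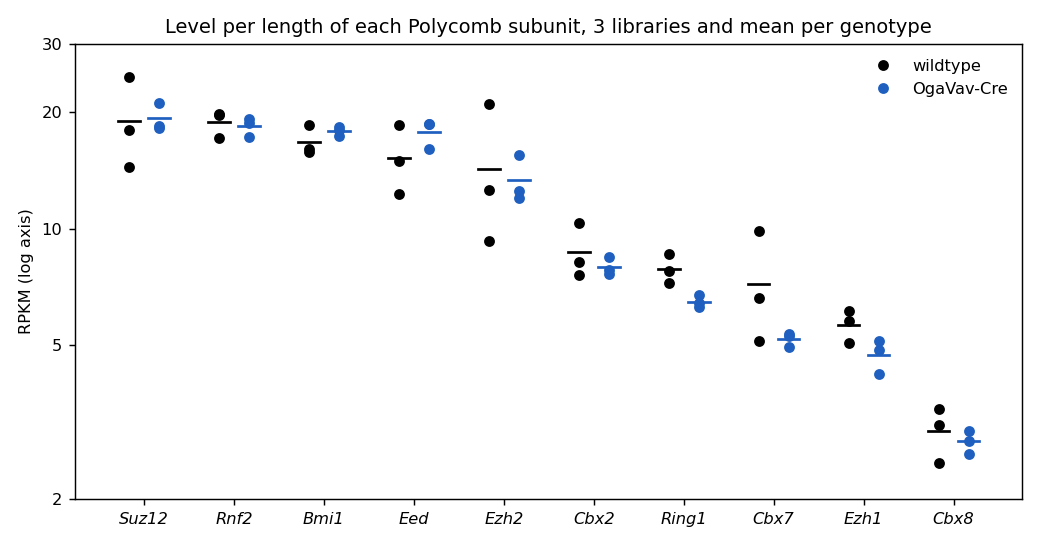
RPKM (log axis) of the 10 Polycomb subunits, ordered by their mean in wildtype cells, with points for single libraries and dashes for the mean of each genotype (n = 3). Suz12, Rnf2, Bmi1, Eed and Ezh2 form the upper group with wildtype means of 14.3 to 19.0 RPKM, and Cbx8 is lowest at 3.00 RPKM.

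Subunits that take the same place in a complex were set against each other within each library. Ezh2 exceeded Ezh1 in each library, by 2.85-, 2.59- and 3.03-fold in OgaVav-Cre replicates 1 to 3 and by 4.14-, 1.61- and 2.06-fold in wildtype replicates 1 to 3 (RPKM ratios). Rnf2 likewise exceeded Ring1 in each library, by 2.20- to 3.07-fold. The ratio of Cbx2 to Cbx7 was 1.54, 1.48 and 1.58 in the OgaVav-Cre libraries against 2.02, 0.769 and 1.24 in the wildtype ones, so Cbx7 was the higher of the pair in wildtype replicate 2 alone. The OgaVav-Cre ratios of Ezh2 to Ezh1 and of Cbx2 to Cbx7 both lay inside the wildtype range, with an SD of 0.221 against 1.35 and of 0.0486 against 0.630. The 6 ratios computed also included pairs with different places, such as Suz12, the scaffold of PRC2, over Eed, its reader of the mark. Of the 6, the ranges of the genotypes were apart for Suz12 over Eed alone. It was 1.15, 0.980 and 1.13 in the OgaVav-Cre libraries against 1.34, 1.18 and 1.20 in the wildtype ones. That separation has the smallest exact permutation p the design allows, 0.1, before any adjustment for 6 ratios.

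The spread among libraries was set beside that of all loci. The highest library over the lowest was 1.01 to 1.22 in OgaVav-Cre and 1.19 to 2.18 in wildtype, with medians over the 10 genes of 1.12 and 1.33, where all tested loci had medians of 1.41 and 1.42. Cbx8, the subunit with the fewest reads, still had 217 or more in each library, while the tested loci included ones with far fewer. Loci of like read count were not compared. The difference in spread was not tested.

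Across the 6 libraries, Ezh2, Suz12, Eed and Cbx2 tended to run with the cycling markers and Cbx7, Cbx8 and Ezh1 against them, which is given as a description since index and subunits share library and scaling. The cycling index, the mean log2(CPM + 1) of 12 proliferation genes, was 7.08, 7.08 and 7.14 in the OgaVav-Cre libraries, replicates 1 to 3, against 7.57, 6.36 and 6.55 in the wildtype ones. Ezh2 and Suz12 ranked the 6 libraries in exactly the order of the index, each with a Spearman rho of 1 (exact permutation p = 0.00278, adjusted p = 0.0556). OgaVav-Cre replicates 1 and 2 were nearly tied in the index, at 7.081 and 7.079, and the exact order rests on that gap. Pearson's r was 0.926 for Ezh2 (exact permutation p = 0.00972, adjusted p = 0.0972) and 0.958 for Suz12 (exact permutation p = 0.00139, adjusted p = 0.0556). For Cbx2 r was 0.839 and rho 0.886 (exact permutation adjusted p = 0.0972 and 0.267). Cbx7 ran the other way, with an r of -0.859 and a rho of -0.943 (exact permutation adjusted p = 0.0556 and 0.167). Cbx8 had an r of -0.814 and a rho of -0.771, and Ezh1 an r of -0.804 and a rho of -0.486 (exact permutation adjusted p = 0.278 for each r, 0.495 and 0.790 for rho). The pattern was not particular to the cycling index, since with the LSK index each of these subunits had an r of the opposite sign. That r was -0.787 for Ezh2, -0.735 for Suz12, -0.607 for Cbx2 and 0.601 for Cbx7 (exact permutation adjusted p = 0.278, 0.389, 0.577 and 0.604). All of these belong to 40 relations, between the 10 subunits and the indices of LSK, lineage-positive, plasma and cycling markers. None of the 40 passed 0.05 after Benjamini-Hochberg adjustment.

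The weight of single libraries differed between subunits. The OgaVav-Cre libraries had nearly the same index (7.08 to 7.14), so r with genotype means removed rested on the 3 wildtype libraries, and it was 0.963 for Ezh2, 0.958 for Suz12, 0.979 for Cbx2, -0.848 for Cbx7 and -0.851 for Cbx8. Without wildtype replicates 2 and 3, the libraries farthest from the median index, r was 0.959, 0.907, 0.975, -0.975 and -0.773 over 4 libraries, which rested on wildtype replicate 1. Without wildtype replicate 1, an alternative chosen after seeing the data, it was 0.864, 0.923, 0.794, -0.900 and -0.619 over 5 libraries. Eed had an r of 0.886 and a rho of 0.600 over 6 libraries, and Ezh1 the values above. With genotype means removed their r was 0.955 and -0.859, and without wildtype replicate 1 it was 0.986 and -0.908. Without wildtype replicates 2 and 3, however, r was -0.119 for Eed and 0.315 for Ezh1, so that these relations rested on those libraries. For Bmi1, Ring1 and Rnf2, r with the cycling index was -0.124, -0.664 and 0.257. Bmi1 instead had its highest r with the plasma cell index (0.881, exact permutation adjusted p = 0.176).

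**Figure D4:**
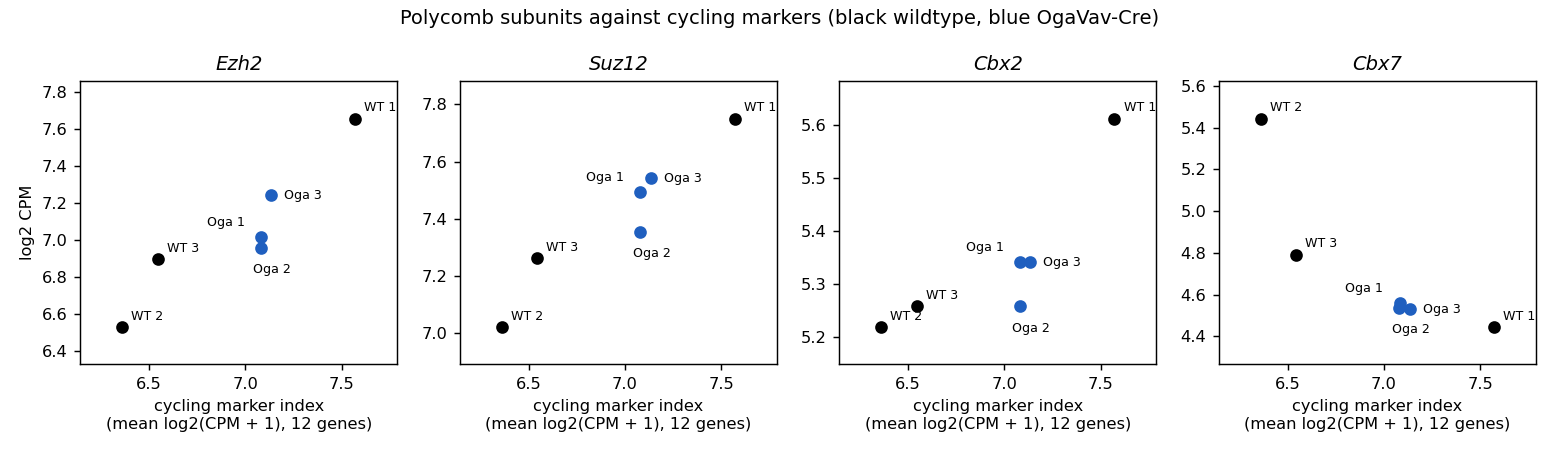
Log2 CPM of Ezh2, Suz12, Cbx2 and Cbx7 against the cycling marker index (mean log2(CPM + 1) of 12 genes) in each of the 6 libraries, OgaVav-Cre in blue and wildtype in black. Ezh2 and Suz12 climb in the order of the index (rho of 1), Cbx7 declines (rho of -0.943), and the OgaVav-Cre libraries cluster between the wildtype extremes. OgaVav-Cre replicates 1 and 2 are nearly tied in the index (7.081 and 7.079).

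Promoter sequences of Ezh2 and Suz12, which ranked the libraries as the cycling index did, and of Cbx7, which ran against it, are shown because many proliferation genes carry sites for E2F transcription factors close to their start. The sequences are from RefSeq on GRCm38.p6, a later build than that of the counts, and run from 250 bases before to 50 bases after the annotated start on the gene's own strand. Of the 10 subunits, 9 were matched by symbol, all but Cbx2. The capitals mark a match to 1 of the 8-letter E2F-type motifs TTTCCCGC, TTTGGCGC, TTTCGCGC and TTTGCCGC, which were searched on both strands. The windows are chr6:47594981-47595280 (minus strand) for Ezh2, chr11:79992856-79993155 (plus strand) for Suz12 and chr15:79932597-79932896 (minus strand) for Cbx7.
Ezh2: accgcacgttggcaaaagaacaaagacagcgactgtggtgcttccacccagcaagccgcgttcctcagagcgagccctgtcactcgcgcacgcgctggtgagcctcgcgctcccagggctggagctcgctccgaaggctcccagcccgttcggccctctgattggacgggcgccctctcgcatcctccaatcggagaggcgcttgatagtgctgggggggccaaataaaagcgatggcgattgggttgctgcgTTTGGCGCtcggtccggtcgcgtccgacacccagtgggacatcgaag
Suz12: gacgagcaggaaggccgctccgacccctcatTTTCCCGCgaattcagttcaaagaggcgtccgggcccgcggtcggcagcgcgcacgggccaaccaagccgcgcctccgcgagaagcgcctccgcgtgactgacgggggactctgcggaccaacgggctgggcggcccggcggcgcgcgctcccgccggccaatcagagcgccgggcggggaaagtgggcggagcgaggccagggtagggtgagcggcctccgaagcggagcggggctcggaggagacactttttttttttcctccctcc
Cbx7: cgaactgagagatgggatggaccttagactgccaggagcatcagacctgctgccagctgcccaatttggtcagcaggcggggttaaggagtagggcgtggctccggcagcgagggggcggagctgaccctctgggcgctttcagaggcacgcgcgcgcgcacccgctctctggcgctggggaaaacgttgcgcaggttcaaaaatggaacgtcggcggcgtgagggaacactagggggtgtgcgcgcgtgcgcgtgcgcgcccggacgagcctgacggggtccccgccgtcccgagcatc
Ezh2 and Suz12 were the 2 of the 9 subunits with a match (22.2%), and 744 of 32851 promoters of the same length had one (2.26%). The match begins at base 4 in Ezh2, counting the annotated start as base 1, and 219 bases before it in Suz12, both on the gene's strand. Among 10 cycling marker promoters 3 held a match (30%). The subunit windows were rich in CG dinucleotides, with 31 in Ezh2, 41 in Suz12 and 33 in Cbx7 and a median of 30 over the 9, against a median of 7 over all promoters. Each motif itself holds a CG, and the share with a match among promoters of like CG content was not computed. The 22.2% and 2.26% therefore do not compare like with like. A match is a description of the sequence and shows no binding.

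No other component of the complexes passed the test. Of 7 PRC2 partners (Aebp2, Jarid2, 3 Polycomb-like proteins and 2 histone-binding proteins) 7 were tested and 0 called, 4 with a higher and 3 with a lower fitted level, and the median log2 fold change was 0.046. Mtf2, a Polycomb-like protein that brings PRC2 to CG-rich DNA, had 126, 137 and 120 CPM in the OgaVav-Cre libraries against 161, 149 and 144 CPM in the wildtype ones. All OgaVav-Cre libraries were below all wildtype libraries, 1 of 7 against the 17.5% of all loci without overlap, and the edgeR adjusted p was 0.492 (log2 fold change -0.25). Jarid2, another targeting factor of PRC2, had a log2 fold change of -0.21 and the histone-binding Rbbp7 one of 0.26 (edgeR adjusted p = 0.580 and 0.593).

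Of 18 PRC1 partners, other PCGF, CBX, PHC and variant PRC1 subunits, 18 were tested and 0 called, 7 higher and 11 lower, with a median log2 fold change of -0.11. Pcgf3, which takes the place of Bmi1 in a variant PRC1, had 50.9, 48.0 and 50.8 CPM in the OgaVav-Cre libraries against 57.0, 63.9 and 70.8 CPM in the wildtype ones. It was 1 of 18 without overlap, a share below the 17.5% of all loci. Pcgf3 was also the only 1 of the 18 with an unadjusted p below 0.05, where all loci had 10.6%, and its log2 fold change was -0.36 (standard error 0.120, edgeR adjusted p = 0.416). The polyhomeotic subunits Phc1 and Phc3 had log2 fold changes of -0.31 and -0.25 (edgeR adjusted p = 0.512 and 0.536).

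Among enzymes and cofactors that remove Polycomb marks no gene passed the test either. Of 6 opponents 5 were tested and 0 called, with a median log2 fold change of -0.14. The H3 lysine 27 demethylases Kdm6a and Kdm6b had log2 fold changes of -0.17 and -0.20, and Asxl2, a cofactor of the H2A deubiquitinase, one of -0.14 (edgeR adjusted p = 0.617, 0.673 and 0.672). Asxl3 had 5 reads in OgaVav-Cre replicate 1 and 0 in the other libraries and was not tested.

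Many genes that Polycomb complexes are known to hold silent had few or no reads, as did many loci of the whole table. Of 19 such genes 10 had no more than 3 reads in any library, 9 of which had 0 reads in each. Among all 53445 loci, 22216 had no more than 3 reads in any library, 16931 of which had 0 reads in each. Of the 19 genes 5 passed the filter and the other 4 had too few reads to be tested. None of the 5 was called, and all 5 were fitted lower in OgaVav-Cre cells (edgeR adjusted p of 0.485 or above), with a median log2 fold change of -0.31. Hmga2, a fetal stem cell chromatin protein, had 22.8, 19.2 and 12.3 CPM in the OgaVav-Cre libraries against 22.5, 28.3 and 27.7 CPM in the wildtype ones (log2 fold change -0.53, edgeR adjusted p = 0.485). Igf2bp3, a fetal RNA-binding protein, had a log2 fold change of -0.42 (edgeR adjusted p = 0.581). Ebf1, a B cell factor, ran from 25.1 to 180 CPM in OgaVav-Cre and from 31.7 to 155 CPM in wildtype cells, while the summed lineage-positive markers ran from 89.5 to 390 CPM and from 119 to 245 CPM. The part of lineage-positive cells in the Ebf1 values was not tested.

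Cdkn2a, the cell cycle inhibitor locus that Bmi1 represses, had 36, 8 and 4 reads in the OgaVav-Cre libraries, replicates 1 to 3, against 7, 7 and 4 reads in the wildtype ones. It did not pass the filter on low counts and was not tested. Its neighbor Cdkn2b had 19, 3 and 0 reads against 6, 3 and 0 reads. Both were highest in OgaVav-Cre replicate 1, which had a Bmi1 level of 91.5 CPM, the highest of the 6 libraries, and an immunoglobulin share of 9.88%. A relation between these values was not tested. The other 5 libraries held 4 to 8 reads of Cdkn2a, whatever their genotype.

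**Figure D5:**
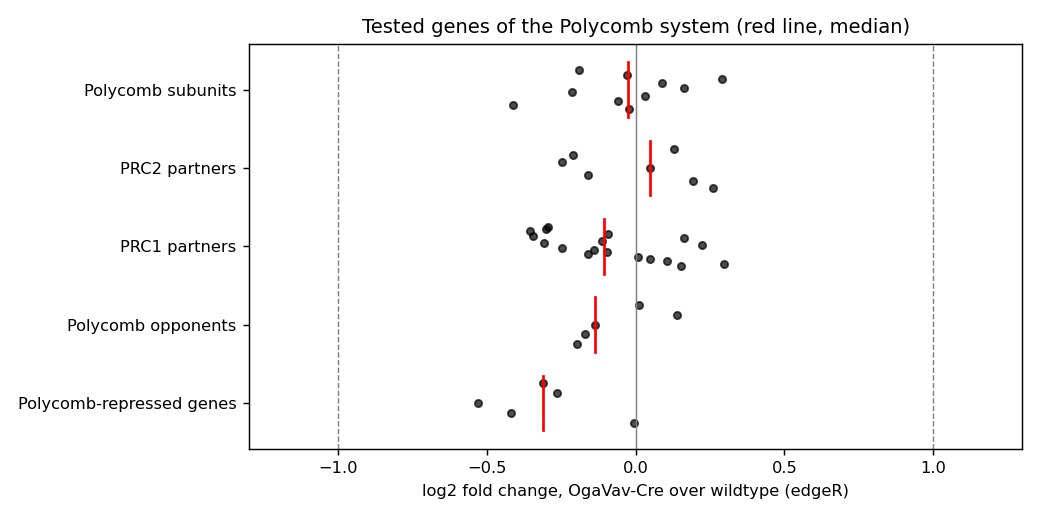
Log2 fold changes in OgaVav-Cre over wildtype cells of the tested genes of each Polycomb list, 1 point per gene with a line at the list's median. The medians are -0.025 for the 10 subunits, and 0.046 and -0.11 for the PRC2 and PRC1 partners. They are -0.14 for the opponents and -0.31 for the repressed genes. The 5 tested repressed genes run from -0.53 to -0.0068.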

How the data were processed

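Poly(A) RNA-Seq of sorted LSK cells from 3 OgaVav-Cre and 3 wildtype mice was analyzed, with groups and replicate numbers taken from the labels. The authors sequenced single-end reads, processed them with CASAVA 1.8.2 per the submitters' processing notes, mapped them to mm9 and counted them at the loci annotated in Genomatix. The deposited values used were counts (raw reads per locus and library) and RPKM made by the authors from the counts and locus lengths. The authors' fold changes and p-values, and 6 columns of Genomatix normalized expression, whose definition is not given in the sources used here, were not used. The aligner, its version and any use of strand in counting are not given in the sources used here.

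The 10 members and all lists were chosen with earlier results of these data known. Counts were fitted with edgeR 4.0.16 in R 4.3.3 (filterByExpr, TMM, glmQLFit, glmQLFTest) over 22032 loci. Called loci had an adjusted p under 0.05 together with a log2 change beyond 1 in either direction. The biological coefficient of variation was 0.308. The functions were tested on simulated data. Other genes named were those of each list with the smallest p, up to 3, Cdkn2a, loci overlapping a member, and marker genes. Cdkn2b and Asxl3 were named after their values were seen. CPM are TMM-scaled, and floors and intervals cover the spread of these samples or counting error only. Alternatives used limma 3.58.1 and DESeq2 1.42.0, other scalings and filters, RPKM, and libraries left out. Correlations used exact permutation of 6 libraries in scipy 1.17.1. Loci were checked against GENCODE gene models of the same build, and all 10 were protein coding there.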

Additional observations from a re-analysis of the deposited data

How the results depend on the processing

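The count of Polycomb subunits called was 0 in each alternative run, as were those of the 4 other Polycomb lists. Over all loci, where 7 were called, 21 were called with no filter on low counts, 4 with at least 10 reads in every library, 115 with DESeq2 (35 higher, 80 lower), 4 with limma on log2(RPKM + 1), and 3 to 9 with single libraries left out (3 without OgaVav-Cre replicate 1 or replicate 2, 4 without wildtype replicate 1 or replicate 3). OgaVav-Cre replicate 3 and wildtype replicate 1 were left out together as an alternative chosen after seeing the data. This left 7 loci and 0 subunits called. At an unadjusted p below 0.05 edgeR then found 3 of the 10 subunits and 4142 of 22272 tested loci. The smallest edgeR adjusted p of a subunit in any alternative was also found there, 0.202 for Eed.

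Log2 fold changes of 5 subunits changed sign in some alternative. Ezh2 was 0.044 with limma-voom, 0.26 without those 2 libraries and -0.24 to 0.35 with single libraries left out. Cbx2 was 0.062 without those 2 libraries and -0.12 to 0.078 with single libraries left out. Rnf2 was -0.034 and -0.032 on RPKM with pseudocounts of 0.1 and 1, and -0.052 to 0.092 with single libraries left out. With single libraries left out Suz12 was -0.053 to 0.32 and Cbx8 -0.14 to 0.061. Ezh1, Eed, Bmi1, Ring1 and Cbx7 kept their sign throughout. The cause of the sign changes was not tested.

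The labels do not say whether replicate numbers pair the libraries, and with 3 libraries a genotype the correlations cannot settle it. Deviations of same-numbered libraries correlated at -0.0814, 0.26 and 0.316. OgaVav-Cre replicates 2 and 3, but not 1, matched their own number best. With the replicate number as a block 6 loci were called in place of 7, 0 of them subunits, and Ezh2 was 0.047.

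Each subunit had over 200 reads in every library, and the 3 libraries per genotype limit the precision of each value.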
